A study of Homo sapiens with 6 samples.

Results

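NRF2, encoded by NFE2L2, and 9 of its antioxidant and detoxification targets were followed across the KYSE70 libraries. The 10 genes were taken by symbol from the gene table (NFE2L2, GCLC, GCLM, GPX2, GSTM3, TXNRD1, SRXN1, NQO1, AKR1C1 and ME1). All 10 were found among 48644 gene rows, and all 10 passed the filter on low values that left 10536 genes to test. KYSE70 is an established human esophageal squamous carcinoma line. Each line carried a doxycycline-inducible pLKO-Tet-On hairpin, in the shTP63 line against TP63 and in the shSOX2 line against SOX2, the genes of 2 transcription factors of squamous epithelium. Poly(A) RNA was sequenced from 4 groups, namely shTP63 cells after 4 days of doxycycline at 50 ng/ml (2 libraries), shTP63 cells at day 0 without doxycycline (1 library), shSOX2 cells after the same treatment (2 libraries) and shSOX2 cells at day 0 (1 library). All groups share the parental line and the hairpin vector, and none of them had a control hairpin under doxycycline. The numbers 1 and 2 in the sample titles were read as replicates, but they could instead number hairpins, and the day 0 libraries, both numbered 2, would then match replicate 2 alone.

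NRF2 is a basic leucine zipper transcription factor that is held at a low level by KEAP1, an adaptor of a CUL3 ubiquitin ligase. Oxidants and electrophiles modify KEAP1, NRF2 then accumulates, pairs with a small MAF protein and binds antioxidant response elements near its targets. Because this control acts on the protein, NFE2L2 mRNA is not a measure of NRF2 activity. Changes in NFE2L2 or KEAP1 that activate NRF2 recur in squamous carcinomas of the esophagus and lung. Whether KYSE70 carries such a change was not examined here. The targets examined make glutathione (GCLC, GCLM), use it (GPX2, GSTM3), run the thioredoxin and sulfiredoxin cycle (TXNRD1, SRXN1), reduce quinones and carbonyls (NQO1, AKR1C1) and supply NADPH (ME1).

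The antioxidant response element has the core letters TGACNNNGC. RefSeq promoter windows (build GRCh38.p14, 250 bases before to 50 bases after a transcription start) were matched by symbol for all 10 genes, which gave 12 windows, since NFE2L2 and TXNRD1 had more than 1 start. The core was present on either strand in 5 of the 12 windows, those of GPX2, GCLM and ME1 and both of TXNRD1, against 13.3% of 35116 windows over all genes. The 4 windows below show where the core lies, in capitals, in one target of each role for which a match was found. They lie at chr14:64942696-64942995 (minus strand, GPX2), chr1:93909381-93909680 (minus strand, GCLM), chr6:83431002-83431301 (minus strand, ME1) and chr12:104215529-104215828 (plus strand, the upstream start of TXNRD1).
GPX2: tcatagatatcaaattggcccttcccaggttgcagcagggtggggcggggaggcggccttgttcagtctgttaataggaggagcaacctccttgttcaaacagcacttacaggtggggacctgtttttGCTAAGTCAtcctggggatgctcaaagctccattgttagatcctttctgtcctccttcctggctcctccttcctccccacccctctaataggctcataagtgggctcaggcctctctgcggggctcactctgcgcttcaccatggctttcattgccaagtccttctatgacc
GCLM: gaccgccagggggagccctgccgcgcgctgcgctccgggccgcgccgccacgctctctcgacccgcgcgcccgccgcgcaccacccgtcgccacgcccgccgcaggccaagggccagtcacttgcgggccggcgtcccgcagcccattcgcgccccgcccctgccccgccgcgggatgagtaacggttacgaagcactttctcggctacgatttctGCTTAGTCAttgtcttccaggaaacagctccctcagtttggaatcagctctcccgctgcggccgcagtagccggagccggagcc
ME1: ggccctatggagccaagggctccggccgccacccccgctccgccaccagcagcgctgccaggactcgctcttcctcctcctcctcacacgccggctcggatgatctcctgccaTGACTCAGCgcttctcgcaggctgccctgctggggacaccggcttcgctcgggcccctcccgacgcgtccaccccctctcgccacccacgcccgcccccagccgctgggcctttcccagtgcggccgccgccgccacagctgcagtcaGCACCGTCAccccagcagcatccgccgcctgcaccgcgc
TXNRD1: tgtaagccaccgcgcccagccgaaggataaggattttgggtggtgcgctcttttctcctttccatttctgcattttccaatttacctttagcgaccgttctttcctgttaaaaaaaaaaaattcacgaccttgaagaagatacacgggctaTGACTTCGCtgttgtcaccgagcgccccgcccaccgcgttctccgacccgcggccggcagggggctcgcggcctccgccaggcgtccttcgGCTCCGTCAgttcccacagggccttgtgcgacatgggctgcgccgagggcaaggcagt
In GPX2 the match begins 122 bases before the start and in GCLM 34 bases before it, both read on the opposite strand. In ME1 one match begins 137 bases before the start, and its letters TGACTCAGC overlap the AP-1 motif TGANTCA, which 7.71% of all windows hold and no other window of the 10 genes does. A second match in ME1 begins 12 bases after the start, on the opposite strand. TXNRD1 has matches that begin 99 and 8 bases before this start. A match describes letters only, and the absence of one in the windows of NFE2L2, GCLC, GSTM3, NQO1, AKR1C1 and SRXN1 says nothing of elements farther away.

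The deposited values were read as log2(RPKM + 1), where RPKM is reads per kilobase of transcript, scaled to library size, and base 2 was assumed. All levels below are on that log2 scale unless RPKM is stated, and a log2 difference understates the change of a gene with a low level. The read depth behind the values is unknown. The shTP63 day 0 library had 16167 genes above 0, against 21530 to 23509 in the other 5, and it is the only control of its line. The markers listed for squamous epithelium were KRT5, KRT14, TP63, SOX2, DSG3, CDH1 and EPCAM. Over 6 libraries all were above 0, with a summed level of 487 to 2160 RPKM, mostly from KRT5 (334 to 2060 RPKM). KRT14 was low, at 0.58 to 0.84 RPKM in shSOX2 libraries and 1.75 to 5.51 RPKM in shTP63 libraries. At most 0.446 RPKM was summed over 5 leukocyte markers, 0.821 over 3 endothelial markers and 5.40 over 5 fibroblast markers, nearly all of the last from COL1A1, with COL1A2 at 0 in 5 of the 6 libraries. The hairpin targets were lower after induction in their own line, SOX2 at 4.67 and 5.65 in shSOX2 day 4 libraries against 6.25 at day 0, and TP63 at 2.11 and 2.26 in shTP63 day 4 libraries against 3.99 at day 0. Against day 0 neither passed the test over all genes (limma adjusted p = 0.469 for SOX2 and 0.131 for TP63). Between the induced lines TP63 was called, at a log2 difference, shTP63 minus shSOX2, of -1.73 (limma adjusted p = 0.0467). That call did not hold without the filter on low values. SOX2 was not called there (0.32, limma adjusted p = 0.621).

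The 10 genes spanned a wide range of levels, with 6 targets far above NFE2L2, GSTM3 and ME1 nearer to it, and GCLM below it. GPX2, the gastrointestinal glutathione peroxidase, had the highest mean of the 10 genes, 70.0 RPKM over the 6 libraries, a level above that of 97.4% of tested genes. It was followed by NQO1 at 50.5, TXNRD1 at 48.1, SRXN1 at 42.5, AKR1C1 at 41.0 and GCLC at 29.0 RPKM. GSTM3 averaged 11.9, ME1 5.33, NFE2L2 3.69 and GCLM 3.11 RPKM. GPX2 exceeded NQO1 in 6 of 6 libraries, whereas NQO1 exceeded TXNRD1 in 3 of 6, TXNRD1 exceeded SRXN1 in 3 of 6 and SRXN1 exceeded AKR1C1 in 3 of 6, so the order within these 4 is not separated by the spread between libraries. AKR1C1, GCLC, GSTM3 and ME1 each exceeded the next gene in that order in 6 of 6 libraries, although the ranges overlapped. NFE2L2 exceeded GCLM in 4 of 6. The 2 subunits of glutamate-cysteine ligase were thus far apart per unit of transcript length, the catalytic GCLC at 29.0 and the modifier GCLM at 3.11 RPKM.

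**Figure D1:**
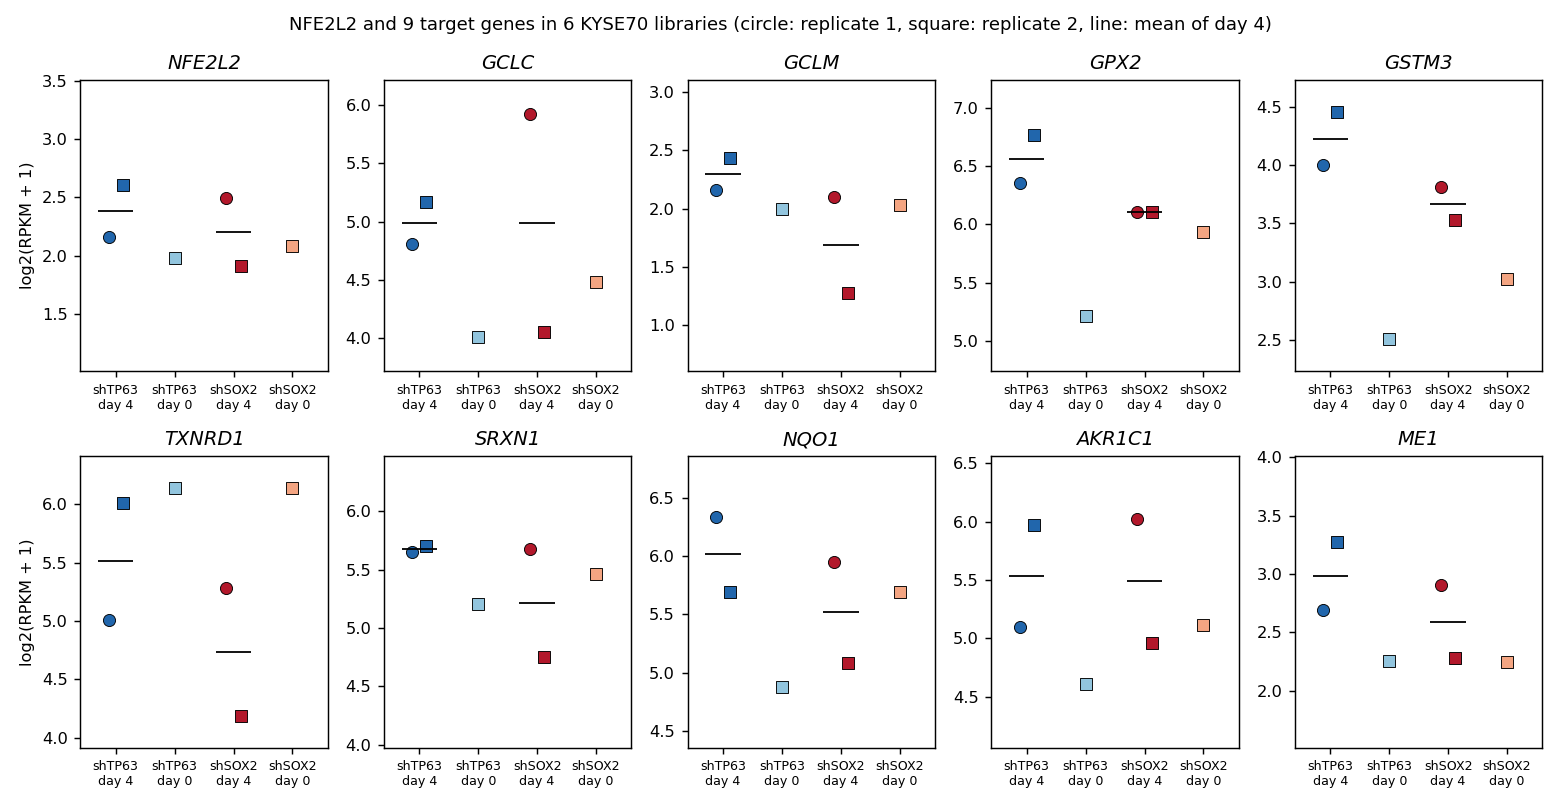
Levels of NFE2L2 and 9 target genes in each library as log2(RPKM + 1), for shTP63 day 4, shTP63 day 0, shSOX2 day 4 and shSOX2 day 0 cells; circles are replicate 1, squares replicate 2 and lines the mean of the day 4 pair, and every panel spans the same number of log2 units. GPX2 and GSTM3 stand above day 0 in both day 4 libraries of either line, and TXNRD1 stands below it.

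In shTP63 cells, 9 of the 10 genes were above day 0 in both day 4 libraries, TXNRD1 being the exception, and none passed the test. Of all tested genes 37.9% were above day 0 in both shTP63 day 4 libraries and 38.5% below. The 10 genes were chosen with earlier results of these data known, so setting them beside such shares is a description and not a test. The median log2 difference of the 10 genes was 0.83, beside 0.00 over all tested genes. At least 2-fold higher in both libraries were 2 genes, GPX2 and GSTM3, while 3.05% of tested genes met that rule. None of the 10 was at least 2-fold lower in both, against 2.82% of tested genes. The test was limma's moderated test on 4 group means, adjusted over all genes, which called 0 of 10 members and 0.019% of all tested genes. At an unadjusted p under 0.05 there were 3 members (GPX2, GSTM3 and NQO1), and 14.6% of all tested genes. With 1 day 0 library per line, its spread was taken to equal that of the induced pairs, and since the labels do not speak of separate cultures, these p-values rest on sample-to-sample spread that may be purely technical. In bulk RNA, more cells expressing a gene and more RNA of it per cell cannot be told apart.

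GSTM3, a mu-class glutathione S-transferase, stood at 4.00 and 4.45 in shTP63 day 4 libraries, against 2.51 at day 0. Both induced libraries were well above the control, with a log2 difference of 1.72 ± 0.36 (standard error from limma, adjusted p = 0.137), the largest of the 10 genes. GPX2, which reduces peroxides with glutathione, was at 6.35 and 6.76 in shTP63 day 4 libraries, against 5.22 at day 0. Its log2 difference was 1.34 ± 0.35 (limma adjusted p = 0.177). The shTP63 day 0 library was the lowest of all 6 for both genes. Set against the shSOX2 day 0 library instead, the log2 differences were 1.20 for GSTM3 and 0.63 for GPX2, and with both day 0 libraries as the control GSTM3 passed at 1.46 (limma adjusted p = 0.04).

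NQO1, a quinone reductase widely used as a readout of NRF2, was at 6.34 and 5.69 in shTP63 day 4 libraries, against 4.87 at day 0, a log2 difference of 1.14 ± 0.48 (limma adjusted p = 0.331). The shSOX2 day 0 library stood at 5.69 as well, so the distance to day 0 depends on which uninduced library is used, and it was 0.32 with the other line's. GCLC was at 4.81 and 5.17 in shTP63 day 4 libraries, against 4.01 at day 0, a log2 difference of 0.97 ± 0.69 (limma adjusted p = 0.552). AKR1C1, an aldo-keto reductase of carbonyls and steroids, was at 5.10 and 5.97 in shTP63 day 4 libraries, against 4.61 at day 0, a log2 difference of 0.93 ± 0.55 (limma adjusted p = 0.473). Both were above day 0 in each induced library, with the induced libraries further apart for AKR1C1. AKR1C1 is nearly identical to other AKR1C genes, and the sources used here do not say how shared reads were assigned, so its values are uncertain.

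ME1, the cytosolic malic enzyme that yields NADPH, stood at 2.69 and 3.28 in shTP63 day 4 libraries, against 2.25 at day 0. Its log2 difference was 0.73 ± 0.41 (limma adjusted p = 0.448). The remaining 3 genes stood closer to day 0. SRXN1, the sulfiredoxin that repairs over-oxidized peroxiredoxins, was at 5.65 and 5.70 in shTP63 day 4 libraries, against 5.21 at day 0. NFE2L2 was at 2.16 and 2.61 in shTP63 day 4 libraries, against 1.98 at day 0, and GCLM at 2.16 and 2.43, against 1.99. The log2 differences of these 3 were 0.47 ± 0.44, 0.40 ± 0.38 and 0.30 ± 0.40, each within about 1 standard error of 0 (limma adjusted p of 0.669, 0.665 and 0.773). In all, 7 of the 10 genes were also above the shSOX2 day 0 library in both shTP63 day 4 libraries, as were 38.4% of tested genes; NQO1, AKR1C1 and TXNRD1 were not.

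TXNRD1, the cytosolic thioredoxin reductase, was below day 0 in every induced library. It stood at 5.01 and 6.01 in shTP63 day 4 libraries, against 6.14 at day 0, and at 5.28 and 4.19 in shSOX2 day 4 libraries, against 6.14 at day 0. The 2 uninduced libraries were nearly equal, and all 4 induced libraries were below both of them, which held for 14.2% of tested genes. The log2 difference was -0.63 ± 0.57 in shTP63 cells (limma adjusted p = 0.655) and -1.41 ± 0.57 in shSOX2 cells (limma adjusted p = 0.465), neither of which passed. In each line 1 library carried most of the distance, replicate 1 of shTP63 at -1.13 beside -0.13, and replicate 2 of shSOX2 at -1.95 beside -0.86.

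**Figure D2:**
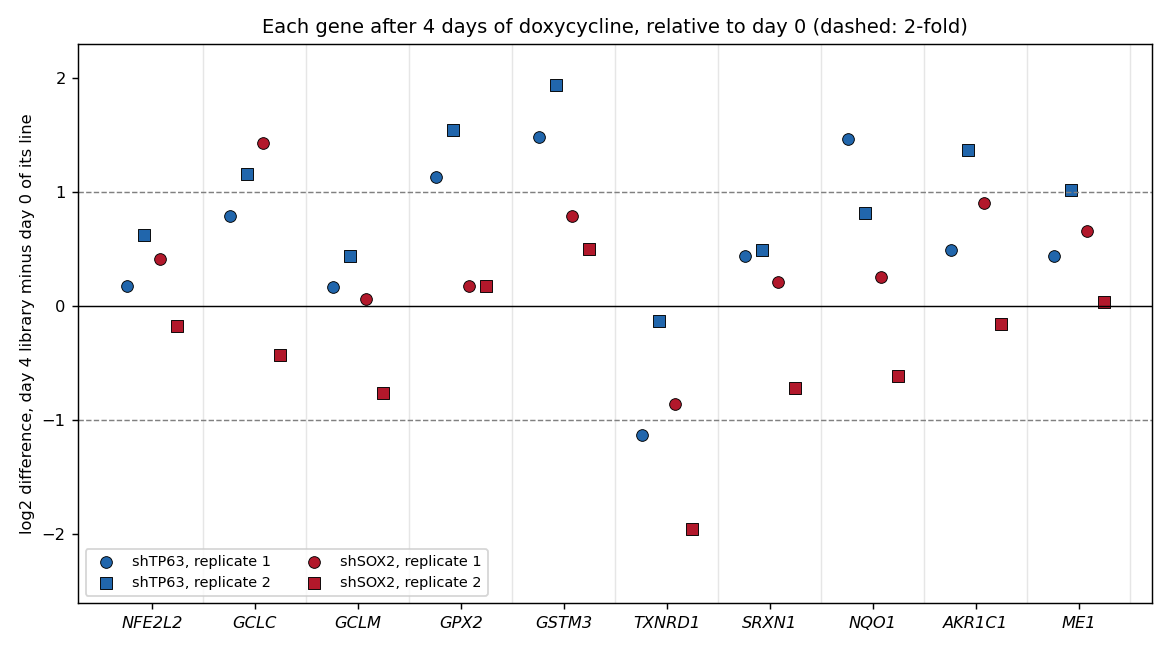
Log2 difference of each day 4 library from the day 0 library of its line for the 10 genes, with shTP63 libraries in blue and shSOX2 libraries in red, replicate 1 as circles and replicate 2 as squares, and 2-fold marked by dashed lines. For 9 genes both blue points lie above 0, for 3 genes (GPX2, GSTM3 and ME1) both red points do, and TXNRD1 is below 0 in all 4 libraries.

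In shSOX2 cells the 10 genes took no common direction. GPX2, GSTM3 and ME1 were above day 0 in both day 4 libraries, TXNRD1 was below in both, and the other 6 were above in one library and below in the other. Of all tested genes, 33.3% were above day 0 in both shSOX2 day 4 libraries and 40.2% below. The median log2 difference was 0.15 for the 10 genes and -0.05 for all tested genes. Limma called 0 of the 10 genes and 0% of tested genes, with 1 member (TXNRD1) and 10.4% of all tested genes at an unadjusted p under 0.05. None of the 10 genes was at least 2-fold higher or lower in both libraries, against 2.48% and 0.987% of tested genes.

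GSTM3 was at 3.81 and 3.52 in shSOX2 day 4 libraries, against 3.02 at day 0, a log2 difference of 0.65 ± 0.36 (limma adjusted p = 0.56). GPX2 was at 6.11 in either shSOX2 day 4 library, against 5.93 at day 0, a log2 difference of 0.18 ± 0.35 (limma adjusted p = 0.88). ME1 was at 2.90 and 2.28 in shSOX2 day 4 libraries, against 2.24 at day 0, a log2 difference of 0.35 ± 0.41 (limma adjusted p = 0.78). Only replicate 1 of ME1 stood clearly apart from the control. These 3 genes were the ones for which all 4 induced libraries exceeded both uninduced ones, a pattern of 11.5% of tested genes.

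The genes that split in shSOX2 cells did so the same way: replicate 1 was above day 0 and replicate 2 below. GCLC was at 5.92 and 4.06 in shSOX2 day 4 replicates 1 and 2, against 4.49 at day 0, and AKR1C1 at 6.02 and 4.96, against 5.11. NQO1 was at 5.95 and 5.08, against 5.69, and SRXN1 at 5.68 and 4.75, against 5.46. NFE2L2 was at 2.50 and 1.91, against 2.08, and GCLM at 2.10 and 1.28, against 2.04. Their log2 differences ran from -0.35 to 0.50 with standard errors of 0.38 to 0.69, and their adjusted p from 0.774 to 0.924 (limma).

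The replicates therefore differed as a block. Among shSOX2 day 4 libraries 9 of the 10 genes were higher in replicate 1, with GPX2 equal, against 53.8% of tested genes. The median difference, replicate 1 minus replicate 2, was 0.84 for the 10 genes and 0.04 for all tested genes. It was largest for GCLC at 1.86, and 1.10 for TXNRD1, 1.06 for AKR1C1 and 0.93 for SRXN1. Among shTP63 day 4 libraries 9 of the 10 genes were higher in replicate 2, with NQO1 the exception, against 50.6% of tested genes, and the same median difference was -0.43 for the 10 genes and -0.01 for all tested genes. In shSOX2 cells this distance between replicates, 0.84, was larger than the median distance of the group mean from day 0, 0.15, and in shTP63 cells it was smaller in size, -0.43 beside 0.83. Summed squamous markers were 939 and 487 RPKM in replicates 1 and 2 of shSOX2 day 4 and 909 and 2160 RPKM in those of shTP63 day 4, higher in the same library of each pair as the 9 genes. That sum was mostly KRT5, at 782 and 334 RPKM in shSOX2 and 782 and 2056 RPKM in shTP63 day 4 replicates 1 and 2. Other markers of the list ran the opposite way, SOX2 at 24.4 and 49.1 RPKM in the shSOX2 pair, CDH1 at 34.1 and 13.5 and EPCAM at 38.5 and 23.6 RPKM in the shTP63 pair. SOX2 is also the hairpin target of its line. Its log2 difference from day 0 was -1.59 in replicate 1 and -0.61 in replicate 2. That of TP63 in shTP63 cells was -1.88 and -1.73. The numbers 1 and 2 could also be those of hairpins. The part of these markers, of the loss of the hairpin target and of the hairpins in the difference was not tested.

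**Figure D3:**
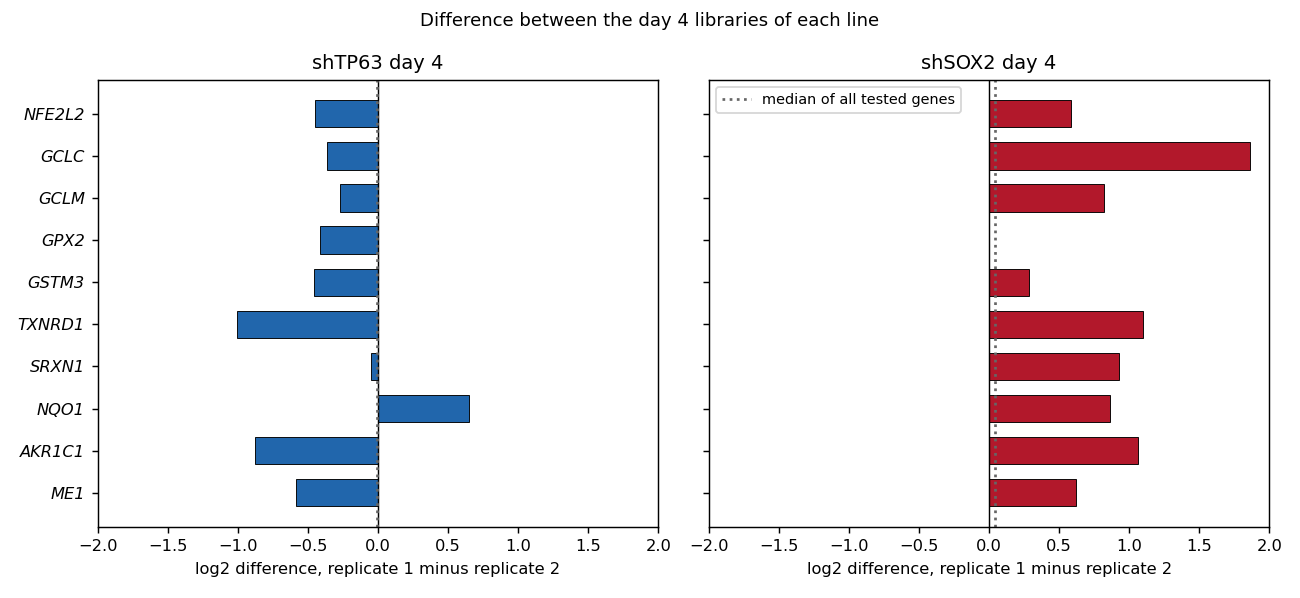
Log2 difference between the day 4 libraries of each line, replicate 1 minus replicate 2, for the 10 genes, with the dotted line at the median of all tested genes (-0.01 in shTP63 and 0.04 in shSOX2 cells). Bars point left in shTP63 cells for 9 genes, NQO1 being the exception, and right in shSOX2 cells for 9 genes, GPX2 being at 0.

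Across the 6 libraries most of the genes correlated positively, given here as a description of 6 points that share lines and libraries. Of 45 pairs of the 10 genes, 42 had a positive Pearson correlation (median 0.65), and the 36 pairs without TXNRD1 were all positive, from 0.33 to 0.96. With NFE2L2 the correlation was 0.95 for both ME1 and AKR1C1, 0.88 for GCLC, 0.79 for SRXN1, 0.74 for GCLM, 0.73 for GSTM3, 0.65 for GPX2, 0.53 for NQO1 and 0.30 for TXNRD1. ME1 ranked 18 and AKR1C1 19 among all other tested genes by this measure. The other members ranked far lower, GCLC at 96, SRXN1 at 279, GCLM at 430, GSTM3 at 467, GPX2 at 789, NQO1 at 1451 and TXNRD1 at 3065. The share of positive pairs over all tested genes was not examined. The 5 genes most like NFE2L2 were NDUFA8, a subunit gene of respiratory complex I (r = 0.99), UBL5, a ubiquitin-like gene (0.98), C3orf78 (0.98), ABHD4, a hydrolase gene (0.97), and RNF216, a ubiquitin ligase gene (0.97).

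The response of shTP63 cells exceeded that of shSOX2 cells in both day 4 libraries against both for 5 of the 10 genes (GPX2, GSTM3, GCLM, NQO1 and SRXN1), as for 29% of tested genes. The difference of the responses, shTP63 minus shSOX2, was 1.31 ± 0.67 for NQO1, 1.16 ± 0.50 for GPX2 and 1.07 ± 0.51 for GSTM3, and limma called 0 of the 10 genes and 0% of tested genes (adjusted p = 0.995 for these 3). At an unadjusted p under 0.05 there was 1 member, GPX2, and 4.55% of tested genes. The interaction therefore does not show that the lines differ for any of the 10. Part of the distance lay at day 0, where 9 of the 10 genes were lower in shTP63 than in shSOX2 cells, ME1 being the exception, against 49% of tested genes, with a median of -0.36 for the 10 and 0.01 for all.

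Between the induced lines the distances were smaller. Both shTP63 day 4 libraries were above both shSOX2 day 4 libraries for GPX2, GSTM3 and GCLM, as for 30.5% of tested genes, and below them for none, as for 26.6%. The mean log2 difference, shTP63 minus shSOX2, was largest for TXNRD1 at 0.78 ± 0.47, whose libraries overlapped, and was 0.61 ± 0.32 for GCLM, 0.56 ± 0.30 for GSTM3 and 0.45 ± 0.29 for GPX2. GCLC and AKR1C1 were at 0.00 and 0.05. Limma called 0 of the 10 genes, the smallest adjusted p being 0.294 for GCLM and GSTM3, and it called 0.759% of tested genes, with 0 members and 23% of tested genes at an unadjusted p under 0.05.

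The 10 genes and others of the NRF2 and redox pathway formed 7 lists, with 103 genes of the table, 92 of them tested. The counts over the lists therefore include the 10 genes. In shTP63 cells these add 9 to the genes above day 0 in both libraries and 2 to those at least 2-fold higher. In shTP63 cells 55 of the 92 were above day 0 in both day 4 libraries and 14 below, where 37.9% of all tested genes were above and 38.5% below. At least 2-fold higher in both were 12 and at least 2-fold lower 1, against 3.05% and 2.82% of all tested genes. In shSOX2 cells 33 of the 92 were above day 0, a share near the 33.3% of all tested genes, and 15 below, against 40.2%. There 5 were at least 2-fold higher and 0 lower in both libraries, against 2.48% and 0.987% of all tested genes. Limma called 0 of the 92 in either line, as it called 0.019% of all tested genes in shTP63 and 0% in shSOX2 cells. At an unadjusted p under 0.05 there were 25 in shTP63 cells, where 14.6% of all tested genes were, and 14 in shSOX2 cells, where 10.4% were. The median log2 difference of the 92 was 0.43 in shTP63 and 0.16 in shSOX2 cells, beside 0.00 and -0.05 over all tested genes. No difference between lists was tested, and the counts for each list below are to be read against these shares. The lists too were chosen with earlier results of these data known, so the comparison with the shares is a description only. The counts above day 0 also include genes that passed the filter through day 4 libraries, GSTA1, GSTA4 and MGST1 among them.

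Among the regulators 1 gene was at least 2-fold apart from day 0 in both libraries of a line. MAFF, one of the small MAF partners of NRF2, was at 1.01 and 1.63 in shTP63 day 4 libraries, against 3.19 at day 0, a log2 difference of -1.87 ± 0.35 (limma adjusted p = 0.131). It was at 1.89 and 1.91 in shSOX2 day 4 libraries, against 2.89 at day 0, a log2 difference of -0.99 ± 0.35 (limma adjusted p = 0.431), just short of 2-fold. The other small MAF genes did not follow MAFF. MAFG was at 1.05 ± 0.43 in shTP63 and 0.63 ± 0.43 in shSOX2 cells (limma adjusted p of 0.317 and 0.62). MAFK was at -0.45 ± 0.34 and 0.46 ± 0.34 (limma adjusted p of 0.577 and 0.654). Of 11 tested regulators 4 were above and 4 below day 0 in both shTP63 libraries, and 3 above and 5 below in shSOX2 cells. Beside them stand 37.9% and 38.5% of all tested genes in shTP63 and 33.3% and 40.2% in shSOX2 cells. KEAP1, the repressor of NRF2, was at 5.00 and 5.42 in shTP63 day 4 libraries, against 5.02 at day 0, and at 4.44 in either shSOX2 day 4 library, against 4.93 at day 0. Neither log2 difference passed, at 0.19 ± 0.36 in shTP63 and -0.49 ± 0.36 in shSOX2 cells (limma adjusted p of 0.851 and 0.649).

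Of 15 tested glutathione peroxidases and transferases 12 were above day 0 in both shTP63 day 4 libraries and 0 below, and 6 were at least 2-fold higher, GPX2 and GSTM3 among them. Over all tested genes these shares were 37.9%, 38.5% and 3.05%. The list median was 0.61, close to those of the quinone and carbonyl list (0.64) and the heme, iron and other targets (0.68). GSTM2, a neighbour of GSTM3 in the mu class, was at 4.35 and 5.35 in shTP63 day 4 libraries, against 2.34 at day 0, a log2 difference of 2.51 ± 0.45 (limma adjusted p = 0.131). GSTM1 was at 3.55 and 4.91 in shTP63 day 4 libraries, against 2.10 at day 0 (2.13 ± 0.54, limma adjusted p = 0.167). GSTA1, of the alpha class, was at 1.67 and 2.56 in shTP63 day 4 libraries and was listed at 0 at day 0 (limma adjusted p = 0.137). That day 0 library had the fewest genes above 0 (16167). GSTA1 passed the filter, with a mean of 1.42 RPKM, because of the shTP63 day 4 libraries (2.18 and 4.91 RPKM). GSTA4 was at 0.513 and 0.776 RPKM in the shSOX2 and shTP63 day 0 libraries and at 1.63 to 3.37 RPKM in day 4 libraries. MGST1 was at 0.929 and 0.689 RPKM at day 0 and at 1.02 to 2.09 RPKM in day 4 libraries. Both thus also passed the filter through day 4 libraries. The places of GSTA1, GSTA4 and MGST1 among the genes above day 0 or at least 2-fold higher are therefore no support for a change. This holds for either line, here and over the 92. In shSOX2 cells 10 of the 15 were above day 0 in both libraries and 0 below, against 33.3% and 40.2% of all tested genes. There GSTM2 was at 3.93 and 3.86 in day 4 libraries, against 2.50 at day 0, and GSTM1 at 3.22 and 2.98, against 1.84. Their log2 differences were 1.40 ± 0.45 and 1.26 ± 0.54 (limma adjusted p of 0.42 and 0.481). GSTA1 was at 1.07 and 0.26 in shSOX2 day 4 libraries, against 0.23 at day 0. Mu-class genes resemble one another and may share reads, so their separate values are uncertain.

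Genes of glutathione synthesis and recycling were mixed. Of 10 tested genes 5 were above and 3 below day 0 in both shTP63 day 4 libraries, and 4 above and 2 below in shSOX2 cells, with none at least 2-fold apart in both libraries of a line. Above and below in both libraries were 37.9% and 38.5% of all tested genes in shTP63 and 33.3% and 40.2% in shSOX2 cells. SLC3A2, the heavy chain partner of the cystine and amino acid transporters, was called between the induced lines. It was at 5.39 and 5.77 in shTP63 day 4 libraries, against 7.23 and 7.43 in shSOX2 day 4 libraries, a log2 difference of -1.75 ± 0.28 (limma adjusted p = 0.0483, and 0.0296 to 0.286 over 11 alternatives). At day 0 it was at 6.53 in shTP63 and 7.28 in shSOX2 cells. It did not pass when 1 of the shSOX2 day 4 libraries was left out (limma adjusted p of 0.182 without replicate 1 and 0.243 without replicate 2).

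Of 15 thioredoxin, peroxiredoxin and superoxide genes, 8 were above and 4 below day 0 in both shTP63 day 4 libraries, and 3 above and 3 below in shSOX2 cells. For these and the next list, the shares of all tested genes were 37.9% above and 38.5% below in shTP63 cells. In shSOX2 cells they were 33.3% and 40.2%. TXNIP, an inhibitor of thioredoxin, was at least 2-fold higher in both shTP63 libraries, at 6.17 and 6.62 in shTP63 day 4 libraries, against 3.71 at day 0 (2.69 ± 0.37, limma adjusted p = 0.113). In shSOX2 day 4 libraries TXNIP was at 5.46 and 5.22, against 4.31 at day 0 (1.03 ± 0.37, limma adjusted p = 0.433). Among 19 genes of quinone and carbonyl detoxification and export, 12 were above and 0 below in both shTP63 libraries, and 6 above and 1 below in shSOX2 cells. The aldehyde dehydrogenase gene ALDH3A2 was at 6.06 and 6.35 in shTP63 day 4 libraries, against 4.98 at day 0 (1.23 ± 0.41, limma adjusted p = 0.248). In shSOX2 cells 3 genes of this list were at least 2-fold higher in both libraries. They were the transporter gene ABCC3 (1.40 ± 0.39), the microsomal epoxide hydrolase gene EPHX1 (1.35 ± 0.37) and the cytochrome P450 gene CYP4F11 (1.08 ± 0.39), with limma adjusted p of 0.373, 0.368 and 0.435. In shTP63 cells the log2 differences were 0.68 ± 0.39 for ABCC3, 1.01 ± 0.37 for EPHX1 and -0.06 ± 0.39 for CYP4F11, and in shSOX2 cells that of ALDH3A2 was 0.36 ± 0.41.

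The shares of all tested genes above and below day 0 in both libraries were 37.9% and 38.5% in shTP63 and 33.3% and 40.2% in shSOX2 cells. For NADPH supply 5 of 10 tested genes were above and 3 below day 0 in both shTP63 day 4 libraries, and 4 above and 3 below in shSOX2 cells. IDH1, the cytosolic isocitrate dehydrogenase, was at 4.30 and 4.12 in shTP63 day 4 libraries, against 2.84 at day 0 (1.37 ± 0.36, limma adjusted p = 0.177). Among 14 heme, iron and other reported NRF2 targets 9 were above and 1 below in shTP63 cells, and 4 above and 1 below in shSOX2 cells. The biliverdin reductase gene BLVRB was at 5.79 and 6.29 in shTP63 day 4 libraries, against 4.62 at day 0 (1.42 ± 0.38, limma adjusted p = 0.178). OSGIN1, an oxidative stress-induced growth inhibitor gene, was at 4.43 and 5.22 in shTP63 day 4 libraries, against 3.41 at day 0 (1.42 ± 0.46, limma adjusted p = 0.24). In shSOX2 cells the log2 differences were -0.52 ± 0.36 for IDH1, 0.65 ± 0.38 for BLVRB and -0.19 ± 0.46 for OSGIN1 (limma adjusted p of 0.629, 0.568 and 0.902).

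FTL, the ferritin light chain, was the other list gene called between the induced lines. There 2 of the 92 were called, against 0.759% of all tested genes. At an unadjusted p under 0.05 there were 31 of the 92, against 23% of all tested genes. FTL was at 11.69 in either shTP63 day 4 library, against 9.75 and 9.61 in shSOX2 day 4 libraries, a log2 difference of 2.00 ± 0.20 (limma adjusted p = 0.0255, and 0.000845 to 0.286 over 11 alternatives). The table was read as quantile-normalized, which gives genes of equal rank the same value. Equal values in the shTP63 pair may therefore understate the spread behind this standard error. The uninduced lines already differed the same way, at 10.69 in shTP63 and 9.06 in shSOX2 cells. Within a line the log2 difference from day 0 was 1.00 ± 0.25 in shTP63 cells (limma adjusted p = 0.164) and 0.63 ± 0.25 in shSOX2 cells (limma adjusted p = 0.453). The difference between the lines did not pass when 1 of the shSOX2 day 4 libraries was left out, at limma adjusted p of 0.107 without replicate 1 and 0.109 without replicate 2. FTL has pseudogenes that can share its reads, so its level is uncertain.

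**Figure D4:**
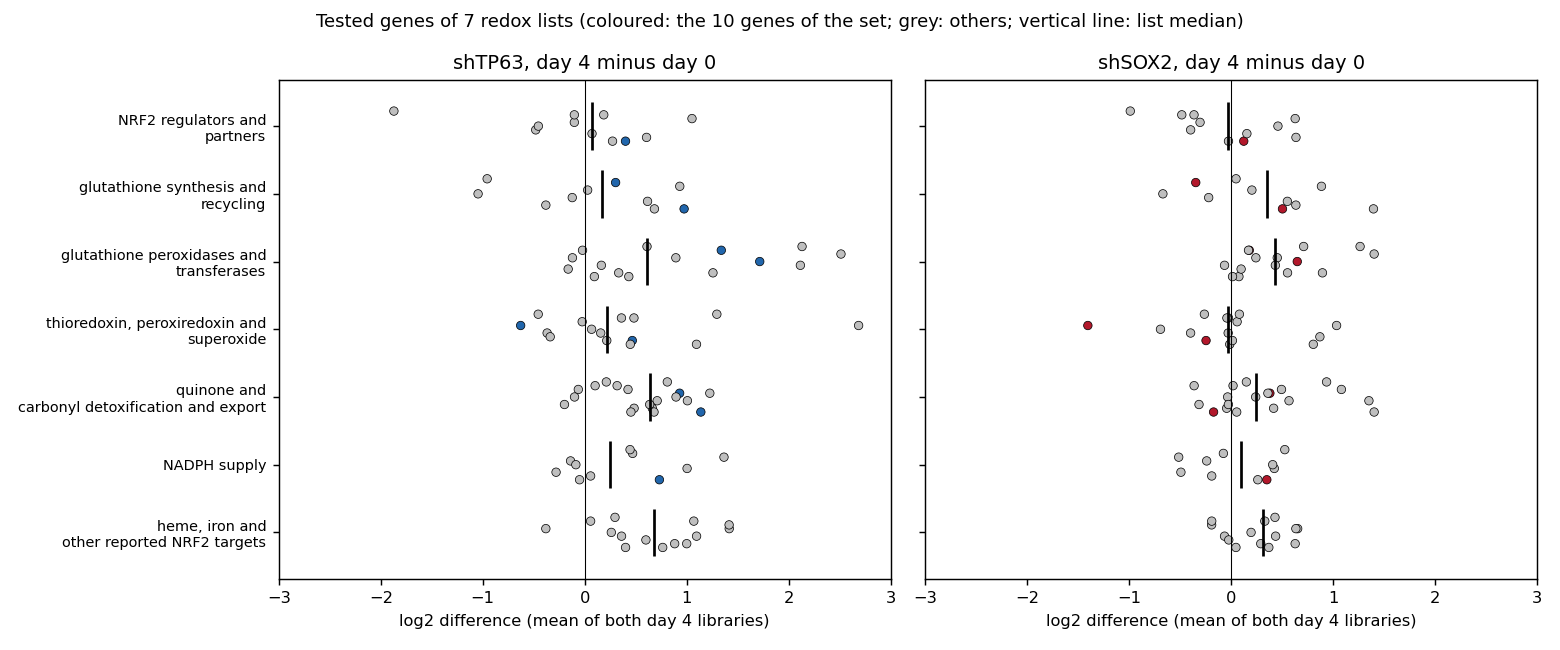
Log2 difference of day 4 from day 0 (mean of both day 4 libraries) for the tested genes of 7 NRF2 and redox lists, with shTP63 cells on the left and shSOX2 cells on the right; coloured points are the 10 genes NFE2L2 to ME1 named above, grey points the others and vertical lines list medians. The medians for glutathione peroxidases and transferases are 0.61 in shTP63 and 0.43 in shSOX2 cells, and those for heme, iron and other targets 0.68 in shTP63 and 0.31 in shSOX2 cells.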

How the data were processed

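Poly(A) RNA of 6 KYSE70 libraries was sequenced on an Illumina HiSeq instrument, per the labels' protocols, with no strand-specific step stated. The authors deposited 1 gene table, named RPKM; from its range and its shared highest value of 13.36 the deposited log2 values were read as log2(RPKM + 1), quantile-normalized between libraries, with base 2 assumed. Reads were placed on hg19 (per the submitters' processing notes), with aligner, counter and annotation not stated in the sources used here. Depth cannot be recovered.

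The table turned out to hold logs, so values were tested without a further log. Linear RPKM was 2 to the power of the value, minus 1. Genes with a mean of at least 1 RPKM were tested with limma 3.58.1 in R 4.3.3 (4 group means, mean-variance trend, 2 residual degrees of freedom, Benjamini-Hochberg adjustment, two-sided, call at adjusted p under 0.05), checked on simulated data. Errors after ± are limma standard errors. Lines were compared as day 4 minus day 0, as the difference of those, and as shTP63 minus shSOX2 at day 4. The genes and lists were chosen with earlier results of these data known. List genes are named when called or at least 2-fold apart from day 0 in both day 4 libraries, at most 5 per list and line. KEAP1, the hairpin targets and the 5 genes most correlated with NFE2L2 are always named. GSTA4, MGST1, MAFG and MAFK are named outside this rule, as limits on what is said of their lists. Alternatives changed the filter, pseudocount, scaling, control, samples, trend and block, and left out each day 4 library. TIGAR and PECAM1 were not matched under these symbols and are not analysed here.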

Additional observations from a re-analysis of the deposited data

How the results depend on the processing

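Limma called 0 of the genes tested, 10 in each alternative but 8 at a mean of 5 RPKM, which leaves out NFE2L2 and GCLM, except that with both day 0 libraries as the control 1 gene, GSTM3, passed in shTP63 cells (1.46, limma adjusted p = 0.04); 0 were called in shSOX2 cells there. Members at least 2-fold higher in both shTP63 day 4 libraries numbered 2, against 1 with both day 0 libraries as the control, 0 with the day 0 library of the other line, an alternative chosen after seeing the data, and 3 to 5 when a single day 4 library was used (5 without replicate 1). Members at least 2-fold lower there numbered 0 to 1, and in shSOX2 cells 0 to 1 in either direction; 1 was higher in shSOX2 cells against the other line's day 0. Pathway genes called in shTP63 cells numbered 0, against 8 with both day 0 libraries as the control and 1 (FTL, at 2.63) with that of the other line. Between the induced lines 2 were called. There 1 was called at a mean of 5 RPKM, 0 without a filter and 1 with a pseudocount of 5. With the groups compared alone or with the replicate block 1 was called in each. The counts also changed when 1 day 4 library was left out. In the main fit 0.019% of all tested genes were called in shTP63 cells and 0.759% between the induced lines. Those shares are not given here for the alternatives. The counts of members and pathway genes called under them are therefore not read as a result about these genes.

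Directions changed with the control in shSOX2 cells for NQO1 (0.23 with both day 0 libraries, 0.64 with the other line's), SRXN1 (0.0049 with the other line's) and TP63 (-0.0743 with the other line's). With either shSOX2 day 4 library left out the log2 difference ranged from -0.17 to 0.41 for NFE2L2, -0.43 to 1.43 for GCLC, -0.76 to 0.061 for GCLM, -0.61 to 0.26 for NQO1, -0.71 to 0.22 for SRXN1 and -0.15 to 0.91 for AKR1C1. The KEAP1 difference in shTP63 cells ranged from -0.026 to 0.40. For the difference of responses the range was -0.014 to 0.57 for NFE2L2 and -0.46 to 1.40 for GCLC. Between the induced lines it was -0.11 to 0.47 for NFE2L2, -0.93 to 0.93 for GCLC, -0.0026 to 0.93 for SRXN1 and -0.48 to 0.58 for AKR1C1; GCLC was also at -0.029 with a pseudocount of 5 and -0.064 with median-ratio scaling, and AKR1C1 at -0.018 with that scaling. These results change direction with 1 library, and the cause was not tested.

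Deviations of same-numbered day 4 libraries correlated at -0.07 across tested genes, so the numbers were not taken to pair the libraries across the lines. This check cannot tell whether day 0 and day 4 libraries numbered 2 are paired within a line, or whether the numbers are those of hairpins. With the replicate block SOX2 in shTP63 cells was at 0.06, the members called stayed at 0, and SLC3A2 did not pass (limma adjusted p = 0.065). The fit with the groups compared alone could not be made for the difference of responses, which needs all 4 groups, and other day 0 controls do not enter the comparison between induced lines. A day 0 library cannot be left out of its own line.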
